A study of Gallus gallus with 12 samples.

Results

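Feather-forming skin of the wing was compared with feather-forming skin of the back in untreated White Leghorn chicken embryos at embryonic day 9 (E9), Hamburger and Hamilton stage 35. The comparison used the 2 wing libraries and the 2 dorsal libraries of that age, 4 of the 12 RNA sequencing libraries of the study, chosen by their labels. Values are CPM, reads scaled to an effective size of each library, so that the totals of the libraries differ. Transcripts at 1 CPM or more in at least 2 libraries were tested. Transcripts under 1 CPM in both dorsal E9 libraries and at or above 1 CPM in all 10 others were set aside, a rule meant for W-linked transcripts. Dorsal skin at E7 (stage 31) and thigh skin at E9 (stage 35), both feather-forming and with 2 libraries each, stand beside the results as reference. The remaining 4 libraries, from scale-forming skin, entered the estimate of spread, the filter on low values and the set-aside rule, and are not compared here.

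Skin of the embryo is patterned by its dermis, which carries positional information and instructs the overlying epidermis to form feathers or scales. HOX transcription factors mark position along the trunk and along the limb, and the T-box factors TBX5 and TBX4 mark the forelimb and the hindlimb. Feather buds form when epidermal placodes and dermal condensations signal to each other through the WNT, EDA, FGF, BMP and hedgehog pathways. Feather tracts do not form buds at the same time, and the tract along the back is among the earliest, so at 1 age region and progress of bud formation cannot be told apart.

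Sample titles call the tissue dermis and tissue labels call it skin. Transcripts of epidermis were found in both regions. COL17A1, the hemidesmosome collagen of basal epidermal cells, was at 7.65 and 25.3 CPM in the wing libraries and 10.3 and 14.7 CPM in the dorsal E9 libraries. CDH1, the epithelial cadherin, was at 4.3 and 11.7 CPM in wing and 5.36 and 5.75 CPM in dorsal skin. Neither passed the limma test between the regions (adjusted p = 0.844 and 0.721). Differences were 0.18 ± 0.50 and 0.33 ± 0.53 (SE). Wing replicate 1 lay far below wing replicate 2 for both genes, so equal levels cannot be read from these tests. The libraries held 13164609 to 20641981 reads on the transcripts of the table. TBX5, the forelimb factor described below, was present in both wing libraries and near 0 in the dorsal ones, which matches the labels. No label states that the replicates are different embryos, so the p-values measure a spread between libraries that may be technical. Replicates ranked transcripts alike, with a Spearman coefficient across transcripts of 0.993 in wing and 0.990 in dorsal E9 skin. In thigh skin it was 0.970, the lowest of the 6 groups. The median absolute log2 difference between replicates was 0.37 in thigh, 0.12 in wing and 0.17 in dorsal E9 skin. The thigh libraries also entered the estimate of spread.

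Of 12239 transcripts tested and not set aside, 2434 (19.9%) differed between wing and dorsal skin at E9. The test was limma on log2(CPM + 1) with Benjamini-Hochberg adjustment, called at an adjusted p under 0.05. In wing 901 transcripts (7.36%) were higher and 1533 (12.5%) were lower, so that 37.0% of calls were higher in wing. After quantile normalization that split moved to 47.0% of 2568 calls. In DESeq2 it was 45.6%, in edgeR 45.0%, with the libraries compared alone 44.3% and without the thigh libraries 42.7%. The other settings that kept all 12 libraries gave 35.8% to 38.8%. At least 2-fold on this scale were 371 of the higher and 858 of the lower transcripts, and the median over all transcripts was -0.03. Leaving out 1 library at a time left between 1073 calls, without wing replicate 1, and 1608 calls, without dorsal E9 replicate 2. Without dorsal E9 replicate 1 there were 1278 calls, and without wing replicate 2 there were 1600. Wing against dorsal E7 skin gave 1630 calls (13.3%), 842 higher (6.88%) and 788 lower (6.44%), and wing against thigh skin gave 2556 (20.9%), 1133 higher (9.26%) and 1423 lower (11.6%). These comparisons share the wing libraries, and age differs in the first of them.

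**Figure D1:**
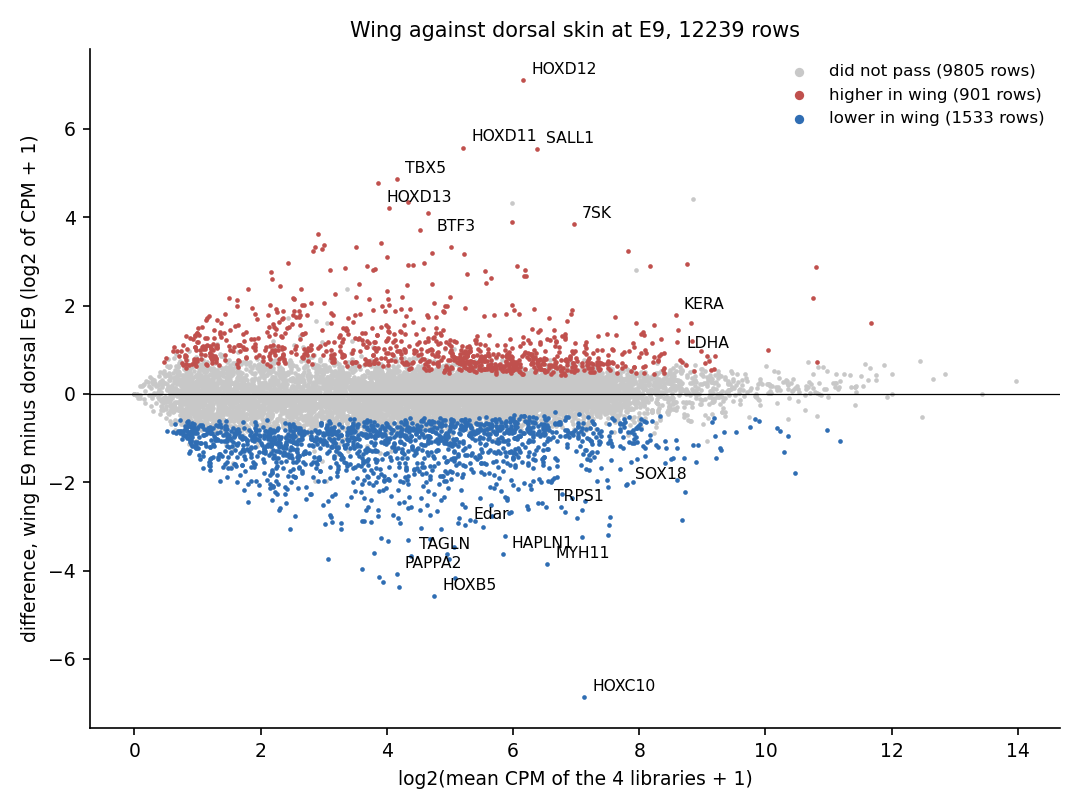
Each point is 1 of 12239 transcripts, placed on the horizontal axis by log2 of its mean CPM over the 2 wing and 2 dorsal E9 libraries, plus 1, and by the difference between the groups in log2 units, on the vertical axis. Red points (901) were higher and blue points (1533) lower in wing skin at an adjusted p under 0.05, and the labelled HOX genes, SALL1 and TBX5 lie at the edges of the cloud.

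The set-aside transcripts numbered 38. Their summed level was 823 and 800.4 CPM in the wing libraries, 10.03 and 10.17 CPM in the dorsal E9 libraries and between 478 and 1236 CPM in the 10 libraries of the other groups, wing included. By the RefSeq gene list of assembly GRCg7b, which matched 10506 of the 12297 transcripts of the table, 6 of the 38 lay on chromosome W, 11 on another chromosome and 21 had no match. HNRPK, an RNA-binding protein gene listed on W, stood at 184 and 173 CPM in wing and 0.66 and 0.67 CPM in dorsal E9 skin. In birds females carry a Z and a W chromosome and males a pair of Z. Region and the presence of these transcripts cannot be told apart, since both dorsal E9 libraries lacked them. ABLIM1 lay just inside the limit, with 0.46 and 0.98 CPM in dorsal E9 skin, and BTF3 just outside it, with 1.74 and 1.8 CPM.

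Transcripts listed on chromosome Z leaned towards lower levels in wing. Their median difference was -0.20 over 503 transcripts, of which 112 (22.3%) were lower and 32 (6.36%) higher in wing. Over 9969 transcripts listed on other chromosomes the median was -0.01, with 1180 (11.8%) lower and 750 (7.52%) higher. Against dorsal E7 skin the Z-listed median was 0.02, and against thigh skin -0.08. Among genes described below, HAPLN1, DMGDH, FST, FOXD1, PTCH1, KLF4, TEK, CCBE1, FREM1, PRDM6, SMAD7, BTF3 and ISL1 are listed on Z. For HAPLN1, DMGDH, FST, FOXD1, PTCH1, KLF4, TEK, CCBE1 and FREM1, which were lower in wing, region and the Z-wide difference cannot be told apart. PRDM6, SMAD7, BTF3 and ISL1 were higher in wing, against the direction of the Z-listed median. BTF3 was low in dorsal E9 skin alone among the feather groups, as the set-aside transcripts were. For it, region and the presence of those transcripts cannot be told apart. With Z-listed transcripts left out, 2290 calls stayed in the comparison.

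**Figure D2:**
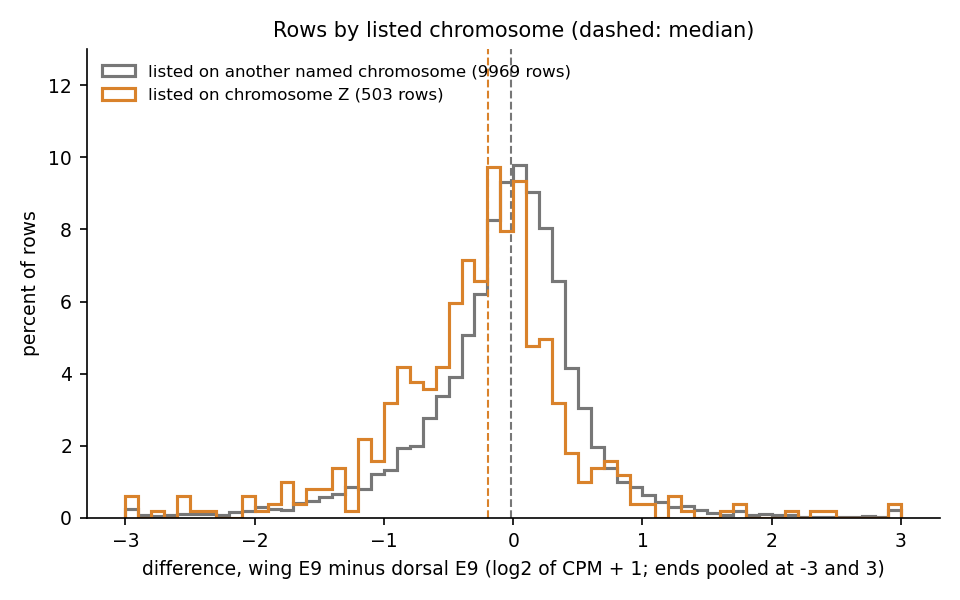
Share of transcripts, in percent, by the difference between wing and dorsal E9 skin in log2 units, for 503 transcripts listed on chromosome Z (orange) and 9969 listed on other chromosomes (grey). The dashed medians lie at -0.20 and -0.01.

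Of 3 limb identity genes, TBX5 and PITX1 differed between wing and back, PITX1 at low levels, and TBX4 did not pass. Of all transcripts 19.9% differed. TBX5 (ENSGALT00000013434.4), the forelimb T-box factor, was at 28 and 39 CPM in wing and 0.36 and 0 CPM in dorsal E9 skin, a difference of 4.87 ± 0.22 (SE; adjusted p = 1.90e-08) on the log2(CPM + 1) scale. PITX1, a homeobox factor of the hindlimb, was at 0.12 and 0 CPM in wing and 1.38 and 1.85 CPM in dorsal E9 skin, a difference of -1.30 ± 0.23 (SE; adjusted p = 0.00144). TBX4, the hindlimb T-box factor, was at 2.57 and 2.85 CPM in wing, 2.14 and 3.18 CPM in dorsal E9 and 45.7 and 25.3 CPM in thigh skin. Its libraries of wing and back overlapped, and the difference of 0.03 did not pass (adjusted p = 0.945).

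A HOX gene had the widest difference in each direction, HOXD12 among higher and HOXC10 among lower transcripts. Of 20 measured, 5 were higher in wing, 10 were lower and 5 did not pass. Of all transcripts 7.36% were higher and 12.5% lower. HOXD12 (ENSGALT00000015086.3), a gene of the posterior end of the HOXD cluster that acts in the distal limb, was at 149 and 132 CPM in wing and 0 and 0.05 CPM in dorsal E9 skin. The dorsal value rests on 1 read in all, and the ratio of 5447 has a counting interval of 977 to 215170. HOXD13, its neighbour in the cluster, was at 28.6 and 25.7 CPM in wing and 0 and 0.05 CPM in dorsal skin, again 1 read, with a ratio of 1052 and an interval of 188 to 41613. Those intervals (95%, exact) cover counting error only. HOXD11 followed, at 73.3 and 69.3 CPM in wing against 0.26 and 0.82 CPM, a difference of 5.58 ± 0.23 (SE; adjusted p = 1.43e-08). HOXD10 was at 25.6 and 29.3 CPM in wing against 6.59 and 11.3 CPM in dorsal skin, with 1.56 ± 0.26 (SE; adjusted p = 9.18e-04). All 4 posterior HOXD genes had both wing libraries above both dorsal ones.

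Within the HOXD cluster the more anterior members differed less. HOXD9 was at 16.8 and 16.3 CPM in wing and 10.4 and 13.4 CPM in dorsal E9 skin, a difference of 0.45 that did not pass (adjusted p = 0.15). HOXD8 was at 33.2 and 38.6 CPM against 25.7 and 25 CPM, with 0.48 ± 0.16 (SE; adjusted p = 0.0495). That call lay at the threshold and was lost with a pseudocount of 2 CPM, without the mean-variance trend and on leaving out any 1 of the 4 libraries (adjusted p = 0.121 to 0.296). HOXD4 stood 0.53 and HOXD3 0.38 apart on the log2 scale, with adjusted p = 0.0693 and 0.258. HOXD4 passed in edgeR (adjusted p = 0.047), after quantile normalization (0.0154), without the thigh libraries (0.0439) and without the mean-variance trend (0.0353).

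Genes of the HOXB and HOXC clusters were lower in wing, except HOXC12, which did not pass. HOXC10 (ENSGALT00000029669.3) was at 1.49 and 1.28 CPM in wing and 264 and 290.1 CPM in dorsal E9 skin, a difference of -6.86 ± 0.22 (SE; adjusted p = 2.06e-09). Dorsal E7 skin held 156 and 188 CPM and thigh skin 130.2 and 209.6 CPM of it, so both wing libraries lay below those of the 3 other feather groups. HOXC11 was at 5.14 and 3.71 CPM in wing and 46 and 74.4 CPM in dorsal skin, with -3.47 ± 0.27 (SE; adjusted p = 2.08e-06). HOXC9 was at 0.24 and 0.95 CPM against 28.3 and 25.3 CPM, and HOXC6 at 0.24 and 0.86 CPM against 32.2 and 24.2 CPM. Differences were -4.16 and -4.25. HOXC12 was at 0.77 and 23.1 CPM in the 2 dorsal E9 libraries and 0.6 and 0.71 CPM in wing, with an adjusted p of 0.0961. It passed in edgeR (0.0179), in DESeq2 (0.00961) and without dorsal E9 replicate 1 (2.65e-05), and dorsal E9 replicate 2 alone held the high value.

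The HOXB genes measured were all lower in wing. HOXB5 was at 0.78 and 1.57 CPM in wing and 50.6 and 50.2 CPM in dorsal E9 skin, a difference of -4.59 ± 0.25 (SE; adjusted p = 1.21e-07). HOXB6 was at 0.48 and 0.9 CPM against 36.5 and 30.9 CPM, with -4.37 ± 0.23 (SE; adjusted p = 6.56e-08). HOXB9 was at 0.36 and 0.57 CPM against 19.2 and 24.7 CPM, with -3.96 ± 0.23 (SE; adjusted p = 1.77e-07). The other members were HOXB3 (-4.18), HOXB4 (-2.78) and HOXB7, spelled Hoxb-7 in the table (-2.74). In dorsal E7 skin the level of HOXB5 was 64.5 and 71.6 CPM, that of HOXB6 38.1 and 38.7 CPM and that of HOXB9 32.5 and 37.6 CPM. Thigh skin held 1.51 and 2.09 CPM of HOXB5, 1.7 and 1.46 CPM of HOXB6 and 2.13 and 2.65 CPM of HOXB9, nearer to wing than to back.

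**Figure D3:**
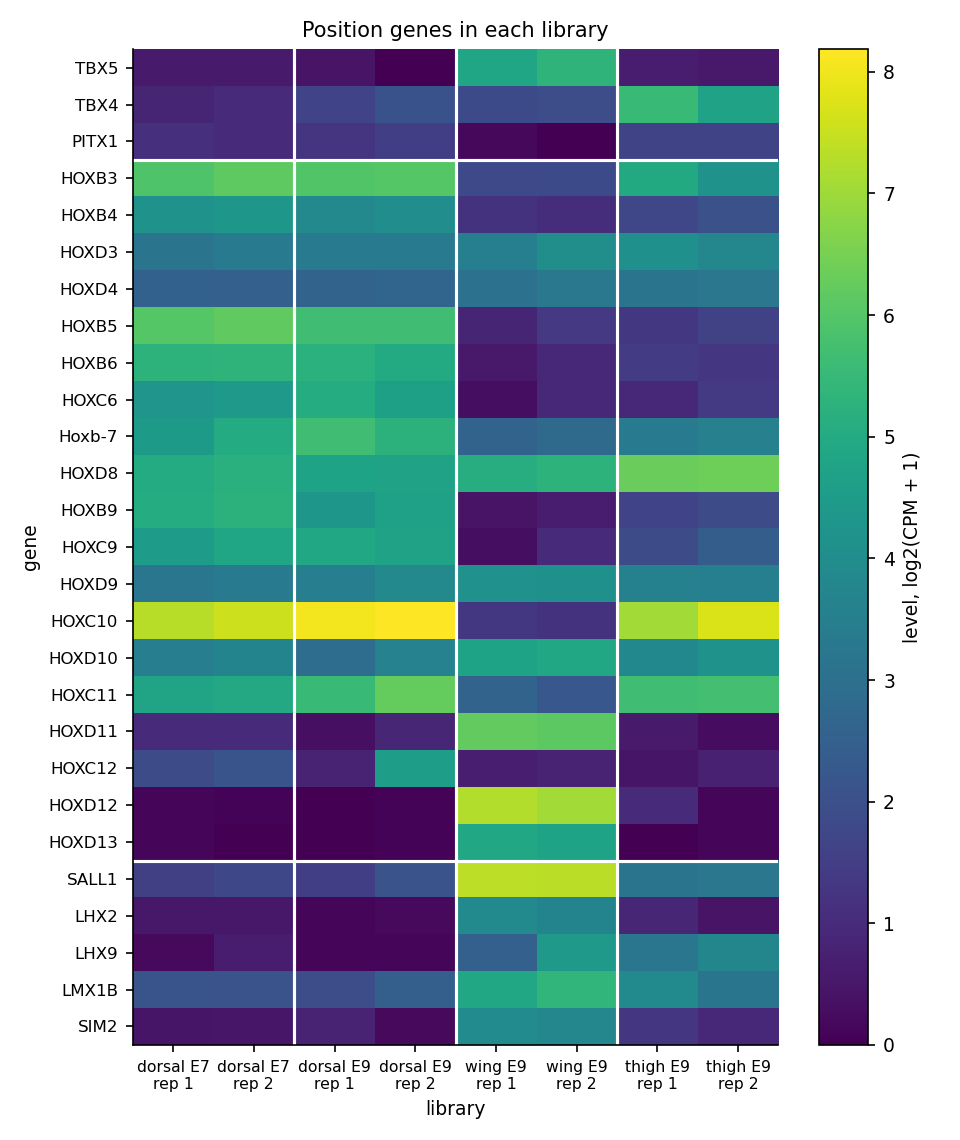
Level of limb identity, HOX and other position genes, as log2(CPM + 1) by colour, in each library of dorsal E7, dorsal E9, wing E9 and thigh E9 skin. TBX5, HOXD11 to HOXD13 and SALL1 are bright in both wing libraries, while HOXB5, HOXB6, HOXC6, HOXB9, HOXC9 and HOXC10 are bright in the 4 dorsal libraries and dark in wing.

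Other limb and axial patterning factors were more often higher than lower in wing, where 7.36% of all transcripts were higher and 12.5% lower. Of 45 tested, 21 (46.7%) were higher, 8 (17.8%) were lower and 16 did not pass, with a median of 0.63 against -0.03 over all transcripts. With 1 library left out 14 to 16 were higher, fewest without dorsal E9 replicate 2. The lower members were then 6 without dorsal E9 replicate 2 and 5 without either wing library or dorsal E9 replicate 1. SALL1 (ENSGALT00000005933.3), a zinc-finger factor required for limb development, was at 163 and 162 CPM in wing and 1.89 and 3.23 CPM in dorsal E9 skin, a difference of 5.55 ± 0.22 (SE; adjusted p = 1.09e-08). LHX2, a LIM homeobox factor of limb outgrowth, was at 13.7 and 12 CPM against 0.1 and 0.15 CPM, with 3.62 ± 0.21 (SE; adjusted p = 1.63e-07). In dorsal E7 skin SALL1 was at 1.91 and 2.44 CPM and LHX2 at 0.44 and 0.45 CPM, below both wing libraries.

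LHX9, a relative of LHX2, was at 4.72 and 20.1 CPM in wing, a wide spread, and 0.1 and 0.1 CPM in dorsal E9 skin, with 3.32 ± 0.47 (SE; adjusted p = 2.66e-04). LMX1B, the LIM homeobox factor that specifies the dorsal side of the limb, was at 28.3 and 40.8 CPM against 2.81 and 4.62 CPM, with 2.92 ± 0.27 (SE; adjusted p = 1.10e-05). ZIC1, a zinc-finger factor of dorsal mesoderm, was at 395 and 344 CPM in wing and 105 and 139.9 CPM in dorsal E9 skin, a difference of 1.60. Further differences in the same direction were those of MSX1 (2.15), MSX2 (2.00), TBX3 (1.99) and SIX2 (1.77). The dorsal E7 libraries held 0.15 and 0.34 CPM of MSX2 and 7.29 and 5.91 CPM of TBX3.

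Among the patterning factors lower in wing were both transcripts of OSR1, a zinc-finger factor of irregular connective tissue. Transcript ENSGALT00000045546.1 was at 18.1 and 18.7 CPM in wing and 103 and 95.3 CPM in dorsal E9 skin, with -2.36 ± 0.21 (SE; adjusted p = 6.48e-06). The other row of OSR1, ENSGALT00000026577.3, had a difference of -2.32, and how reads were shared between the rows is not given in the sources used here. MEIS1, a HOX cofactor, was at 30.2 and 35.6 CPM against 94.2 and 92.4 CPM, a difference of -1.48. IRX2 was at 46.1 and 48.6 CPM against 133 and 126 CPM, a difference of -1.43. EN1, the homeobox factor of ventral limb ectoderm and, in mouse, of the precursors of back dermis, was at 14.3 and 12.4 CPM against 21.1 and 30.2 CPM, and its call was lost without dorsal E9 replicate 2 (adjusted p = 0.109) and without wing replicate 2 (0.078).

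Outside those lists, the genes with the widest differences were of varied kinds. PLSCR5, a phospholipid scramblase family member, was at 27.6 and 32.9 CPM in wing and 0.56 and 0.82 CPM in dorsal E9 skin, with 4.21 ± 0.21 (SE; adjusted p = 4.80e-08). PRDM6, a chromatin factor studied in smooth muscle, was at 35.4 and 17.6 CPM against 1.63 and 1.28 CPM, with 3.41 ± 0.33 (SE; adjusted p = 1.44e-05). SIM2, a basic helix-loop-helix factor, was at 14.5 and 12.8 CPM against 0.71 and 0.15 CPM, with 3.38 ± 0.24 (SE; adjusted p = 1.24e-06). PCP4, a calmodulin-binding peptide, was at 59.1 and 57 CPM against 5.21 and 4.57 CPM, while dorsal E7 skin held 26.6 and 22.3 CPM. BTF3, a general factor of nascent protein handling, stood at 49.2 and 44.3 CPM in wing against 1.74 and 1.8 CPM in dorsal E9 skin. Dorsal E7 skin held 27.8 and 40.0 CPM of BTF3 and thigh skin 27.7 and 51.3 CPM. In limma BTF3 did not pass between wing and dorsal E7 or thigh skin (adjusted p = 0.413 and 0.558). Dorsal E9 skin was its low group, as for the set-aside transcripts. The small nuclear RNA 7SK was at 468 and 14.9 CPM in the wing libraries and 6.79 and 3.59 CPM in the dorsal E9 libraries, with 3.85 ± 1.10 (SE; adjusted p = 0.0248). The value of wing replicate 1 lay far above the others, and without it the difference was 1.41 with an adjusted p of 0.247. The call was also lost without dorsal E9 replicate 1 (0.0737), without dorsal E9 replicate 2 (0.132), with robust moderation (0.128) and with the libraries compared alone (0.0679).

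PAPPA2, a protease that frees insulin-like growth factors from their binding proteins, was at 0.96 and 1 CPM in wing and 34.3 and 31 CPM in dorsal E9 skin, with -4.08 ± 0.41 (SE; adjusted p = 1.95e-05). HAPLN1, the link protein of hyaluronan and proteoglycan, was at 6.69 and 7.84 CPM against 134 and 77 CPM, with -3.64 ± 0.24 (SE; adjusted p = 6.31e-07). DMGDH, a mitochondrial enzyme of choline breakdown, was at 2.87 and 4.47 CPM against 63.6 and 48.4 CPM, with -3.62 ± 0.27 (SE; adjusted p = 1.78e-06). APOA1, the main protein of high-density lipoprotein, was at 0.78 and 1.09 CPM against 35.3 and 14.1 CPM, with -3.60 ± 0.31 (SE; adjusted p = 6.48e-06). In all 4 genes both wing libraries lay below both dorsal E9 libraries. Dorsal E7 skin held 43.2 and 39.2 CPM of DMGDH, near the E9 level, and 2.5 and 2.33 CPM of APOA1, near the wing level.

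Feather bud genes were split, where 7.36% of all transcripts were higher in wing and 12.5% lower. Of 27 tested, 5 were higher in wing, 9 (33.3%) were lower and 13 did not pass, with a median of 0.04. The higher members were 3 without dorsal E9 replicate 1 or wing replicate 2, and the lower members were 6 without wing replicate 1. EDAR (Edar in the table), the ectodysplasin receptor of the placode, was at 5.5 and 10.1 CPM in wing and 61.6 and 70.2 CPM in dorsal E9 skin, a difference of -2.98 ± 0.41 (SE; adjusted p = 2.38e-04). TRPS1, a zinc-finger factor of hair and feather development, was at 22.2 and 28.9 CPM against 134 and 177 CPM, with -2.56 ± 0.31 (SE; adjusted p = 7.59e-05). SOX18, a factor of hair follicle dermis in mouse and of endothelium, was at 82.4 and 87.5 CPM against 345 and 369 CPM, with -2.06 ± 0.22 (SE; adjusted p = 3.00e-05). FOXD1, a forkhead factor of dermal condensations in mouse, was at 37.2 and 33.5 CPM against 99.4 and 94.8 CPM, with -1.44 ± 0.22 (SE; adjusted p = 4.82e-04). For each of these 4 genes both wing libraries lay below both dorsal E9 libraries.

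In dorsal E7 skin TRPS1, SOX18 and FOXD1 were below the wing level, and EDAR overlapped with it. EDAR was at 4.86 and 5.86 CPM, TRPS1 at 3.31 and 3.13 CPM, SOX18 at 26.6 and 30.1 CPM and FOXD1 at 4.19 and 6.08 CPM there. Against dorsal E7 skin, 14 of the 27 bud genes were higher in wing and 0 lower, where 6.88% and 6.44% of all transcripts were. By unadjusted p in limma 2 were lower, in edgeR 2 and in DESeq2 2. BMP4, a bone morphogenetic protein of the bud, was at 31.4 and 41 CPM in wing against 129 and 95.6 CPM in dorsal E9 skin, with -1.60 ± 0.22 (SE; adjusted p = 2.24e-04). BMP7 went the other way, at 166 and 209 CPM in wing against 43.9 and 62.1 CPM, with 1.81 ± 0.24 (SE; adjusted p = 1.86e-04). MSX1 and MSX2, homeobox targets of BMP signalling with values above, belong to this list and to the patterning factors.

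Hedgehog pathway genes lower in wing included the ligand, the receptor PTCH1 and a decoy of the ligand. Of 14 tested, 4 (28.6%) were lower in wing and 1 (7.14%) was higher, where 12.5% and 7.36% of all transcripts were. Without wing replicate 1 the lower members were 2, and on leaving out any 1 library the higher member, GLI3, was lost. SHH, the ligand made by the bud epithelium, was at 0.18 and 0.9 CPM in wing and 3.37 and 2.77 CPM in dorsal E9 skin, with -1.44 ± 0.29 (SE; adjusted p = 0.00349), a call lost without wing replicate 1 (adjusted p = 0.0575). HHIP, a membrane decoy of the ligand that is also induced by it, was at 24.8 and 30.4 CPM against 103 and 127 CPM, with -2.02 ± 0.27 (SE; adjusted p = 1.67e-04). PTCH1, the main receptor, was at 171 and 204 CPM against 289.6 and 339.7 CPM, a difference of -0.74. That call was lost without wing replicate 1 (adjusted p = 0.15) and without dorsal E9 replicate 2 (0.111).

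NOTCH pathway genes that passed were all lower in wing. They numbered 9 of 23 (39.1%), with a median of -0.43 over the list, where 12.5% of all transcripts were lower and 7.36% higher. The higher members were 0 by limma, 1 at an unadjusted p, 1 in edgeR and 1 in DESeq2. There were 2 lower members without wing replicate 1 or dorsal E9 replicate 1, 4 without dorsal E9 replicate 2 and 5 without wing replicate 2. JAG1, the ligand of the bud mesenchyme, was at 95.7 and 108 CPM in wing and 209 and 239 CPM in dorsal E9 skin, with -1.13 ± 0.19 (SE; adjusted p = 0.00105). DLK1, a ligand-like membrane protein, was at 13.9 and 12.5 CPM against 26 and 26.6 CPM, with -0.94 ± 0.19 (SE; adjusted p = 0.00333). Both passed under all 17 alternatives, JAG1 and DLK1 alike. Dorsal E7 skin held 12.4 and 15.6 CPM of JAG1 and 28.9 and 30.9 CPM of DLK1.

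Ectodysplasin pathway genes numbered 7 tested. EDAR and EDA2R were lower in wing (28.6%), TNFRSF19 and NFKB1 were higher (28.6%), and 3 did not pass. Of all transcripts 12.5% were lower and 7.36% higher. TNFRSF19, a receptor of the same family, was at 139 and 182 CPM in wing against 56.5 and 72.9 CPM, with 1.29 ± 0.22 (SE; adjusted p = 9.84e-04). The calls of NFKB1, a transcription factor downstream of the receptors, and EDA2R, a receptor of an ectodysplasin isoform, were lost without wing replicate 1, with adjusted p = 0.132 and 0.0788. Each was also lost without at least 1 other library.

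**Figure D4:**
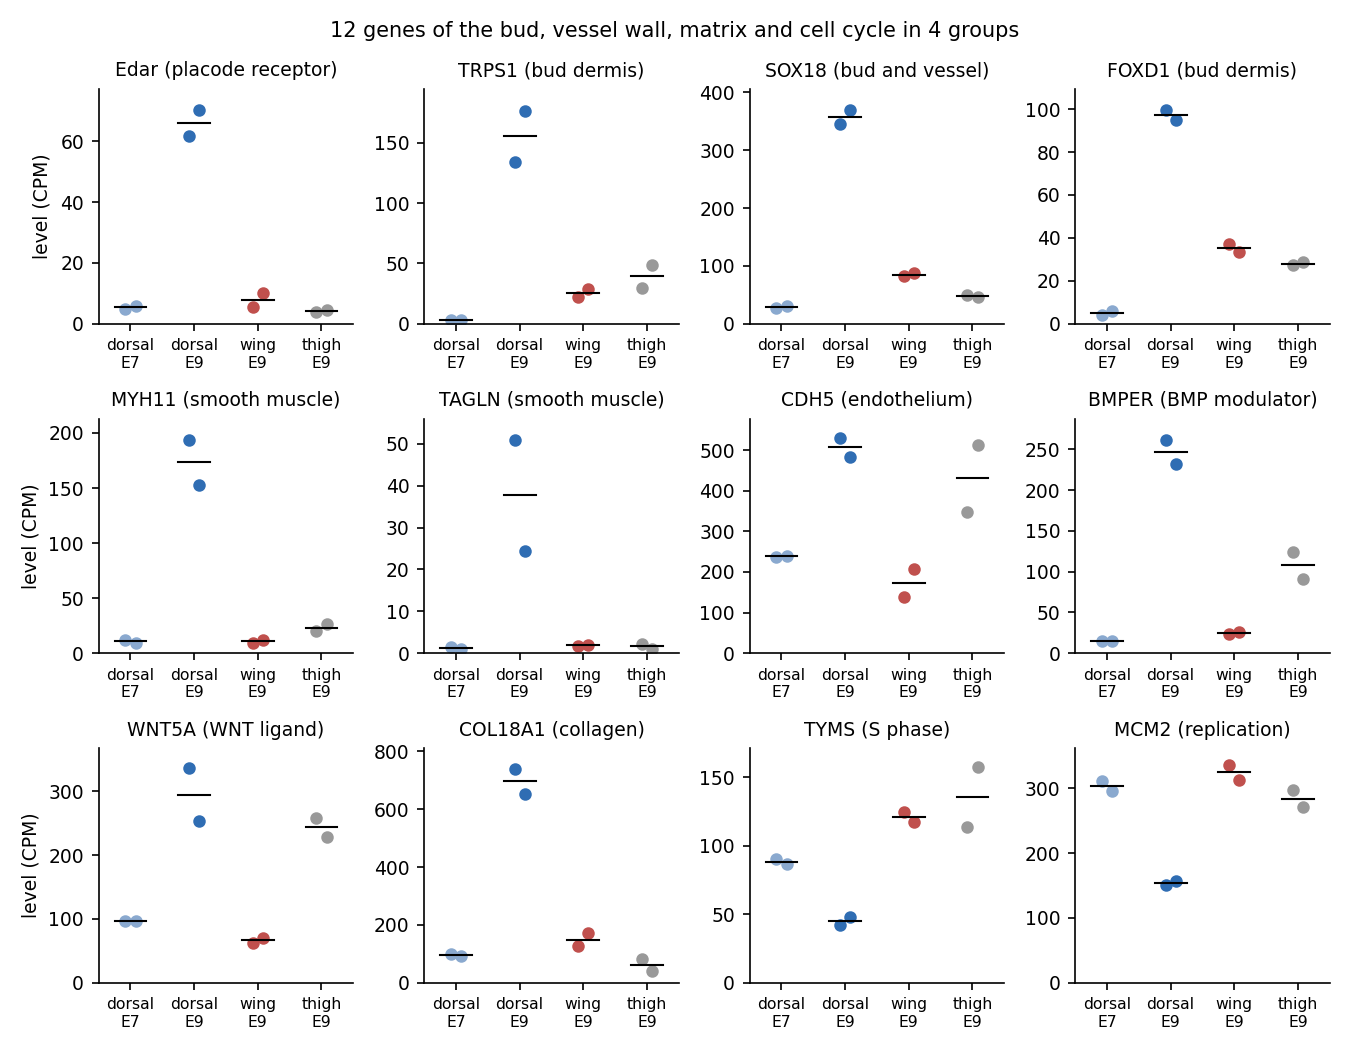
Level in CPM of 12 genes in the 2 libraries of each feather group (points) with the mean of each group (bar). The genes were chosen as ones at which dorsal E9 skin stands apart, so the pattern carries no test. Dorsal E9 skin stands above wing E9 and dorsal E7 skin for EDAR, TRPS1, SOX18, FOXD1, MYH11, TAGLN, CDH5, BMPER, WNT5A and COL18A1, and below them for TYMS and MCM2. Thigh E9 skin overlaps with dorsal E9 skin for CDH5 and lies below it for SOX18 and FOXD1.

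WNT pathway genes were split nearly evenly. Higher in wing were 9 of 49 (18.4%) and lower 10 (20.4%), where 7.36% and 12.5% of all transcripts were. The 30 others did not pass. The median was 0.01, and the higher members were 4 without dorsal E9 replicate 1 and 5 without dorsal E9 replicate 2. WNT16, a ligand, was at 40.2 and 32.4 CPM in wing and 6.54 and 2.16 CPM in dorsal E9 skin, with 2.93 ± 0.40 (SE; adjusted p = 2.24e-04). WNT5A, a ligand of outgrowth and cell movement, was at 62.5 and 70.9 CPM against 337 and 253 CPM, with -2.12 ± 0.16 (SE; adjusted p = 2.08e-06). WNT2B, another ligand, was at 12.7 and 7.98 CPM against 41.9 and 47.2 CPM, with -2.03 ± 0.29 (SE; adjusted p = 2.94e-04). Wing libraries were above the dorsal E9 ones for WNT16 and below them for WNT5A and WNT2B.

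Receptors and modulators of WNT signalling followed both directions as well. LGR6, an R-spondin receptor, was at 0.6 and 1.62 CPM in wing against 18.2 and 14.1 CPM, with -3.06 ± 0.27 (SE; adjusted p = 8.24e-06). KREMEN1, a receptor of Dickkopf proteins, was at 36 and 49.3 CPM against 13 and 16.8 CPM, with 1.45 ± 0.20 (SE; adjusted p = 2.63e-04). SP5, a transcription factor induced by WNT signalling, was at 37.2 and 26 CPM against 9.24 and 6.11 CPM, with 1.91 ± 0.32 (SE; adjusted p = 0.001). The secreted inhibitors SFRP2 (-1.54), WIF1 (-1.46) and SFRP1 (-1.15) were lower in wing. Dorsal E7 skin held 70.4 and 71 CPM of SP5 and 59.8 and 65.4 CPM of KREMEN1, so dorsal E9 skin had the lowest level of both among wing and the dorsal groups.

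Among all transcripts 12.5% were lower in wing and 7.36% higher. BMP, activin and TGF-beta pathway genes were lower in 19 of 46 cases (41.3%) and higher in 7 (15.2%), with a median of -0.35. With 1 library left out 11 to 15 were lower, 11 without wing replicate 1. The higher members were then 3 without dorsal E9 replicate 1 or wing replicate 2 and 4 without either of the others. BMPER, a secreted protein that binds BMPs, was at 24 and 26.2 CPM in wing and 262 and 232 CPM in dorsal E9 skin, with -3.24 ± 0.17 (SE; adjusted p = 6.56e-08). INHBB, a subunit of activin B, was at 0.9 and 0.81 CPM against 12 and 14.6 CPM, with -2.94 ± 0.31 (SE; adjusted p = 2.39e-05). SOSTDC1, a secreted antagonist of BMP and WNT signalling, was at 1.67 and 1.9 CPM against 29.3 and 12.8 CPM, with -2.88 ± 0.36 (SE; adjusted p = 9.98e-05). FST, which sequesters activin, was at 24.9 and 22.5 CPM against 98.1 and 106 CPM, with -2.06 ± 0.23 (SE; adjusted p = 4.41e-05). CHRD, the BMP antagonist chordin, differed by -1.72.

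Members of that pathway higher in wing included BMP3, BMP7 and SMAD7. BMP3, an atypical BMP ligand, was at 112 and 87.4 CPM in wing against 18.3 and 31 CPM, with 2.01 ± 0.22 (SE; adjusted p = 4.04e-05). SMAD7, an intracellular inhibitor of the pathway, was at 3.94 and 3.28 CPM against 0 and 0.05 CPM. Its dorsal value is 1 read, and the ratio of 140 has a 95% counting interval of 24.6 to 5553. Dorsal E7 skin held 1.55 and 2.44 CPM of SMAD7, so both dorsal E9 libraries lay below both dorsal E7 libraries. For SMAD7, as for BTF3, region and the presence of the set-aside transcripts cannot be told apart.

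FGF pathway genes passed in 10 of 29 cases, 7 lower (24.1%) and 3 higher (10.3%) in wing, with a median of -0.17. Among all transcripts 12.5% were lower and 7.36% higher. The lower members were 2 without wing replicate 1 or dorsal E9 replicate 1 and 4 without wing replicate 2. FGF14, a member of the intracellular FGF branch, was at 0.6 and 0.62 CPM in wing and 3.73 and 9.29 CPM in dorsal E9 skin, with -2.12 ± 0.31 (SE; adjusted p = 3.54e-04). FGFRL1, a receptor-like protein without a kinase, was at 4 and 5.46 CPM against 16.7 and 16.2 CPM, with -1.62 ± 0.26 (SE; adjusted p = 6.40e-04). FGF9, a ligand, was at 11.7 and 13.2 CPM against 3.57 and 5.54 CPM, with 1.29 ± 0.24 (SE; adjusted p = 0.00226). ETV4, a transcription factor induced by FGF signalling, differed by 1.21.

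Retinoic acid genes were lower in 4 (26.7%) and higher in 3 (20%) of 15 cases, where 12.5% and 7.36% of all transcripts were. STRA6, the receptor that takes up retinol, was at 42.5 and 41.5 CPM in wing and 206 and 119.8 CPM in dorsal E9 skin, with -1.88 ± 0.29 (SE; adjusted p = 5.90e-04). CYP26B1, which degrades retinoic acid, was at 18.4 and 17.7 CPM against 62.7 and 58.4 CPM, with -1.69 ± 0.19 (SE; adjusted p = 3.86e-05). RARB, a nuclear receptor of retinoic acid, was at 98.4 and 110.0 CPM against 45.9 and 42.5 CPM, with 1.22 ± 0.14 (SE; adjusted p = 7.07e-05). CRABP1 (CRABP-I in the table), a cellular carrier of retinoic acid, differed by 1.41.

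Insulin-like growth factor genes were lower in 7 of 15 cases (46.7%) and higher in 1 (6.67%), where 12.5% and 7.36% of all transcripts were. The list had a median of -0.57. IGF2, a growth factor of the embryo, was at 17.3 and 22 CPM in wing and 68.3 and 68.9 CPM in dorsal E9 skin, with -1.76 ± 0.18 (SE; adjusted p = 2.46e-05). IGF1 (ENSGALT00000020816.2, IGF-I in the table) was at 0.12 and 0.1 CPM against 2.96 and 2 CPM, with -1.63 ± 0.23 (SE; adjusted p = 2.80e-04). A further row of IGF1 was measured and is not reported here. STC2, a secreted inhibitor of the protease PAPPA, was at 1.08 and 1.57 CPM against 12.6 and 8.26 CPM, with -2.28 ± 0.31 (SE; adjusted p = 2.19e-04). The binding protein gene IGFBP4 differed by -1.06. The higher member was IGF2BP3, an RNA-binding protein, with 0.60, called without dorsal E9 replicate 2 and not without any other library. In dorsal E7 skin IGF2 was at 19.1 and 20.1 CPM, near the wing level.

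Genes of smooth muscle and pericytes, the contractile cells of vessel walls and of the feather muscles, were lower in wing in 15 of 28 cases (53.6%). The higher members were 0 by limma, at an unadjusted p as well as adjusted, and 0 in edgeR and DESeq2. The median was -1.01, and of all transcripts 12.5% were lower and 7.36% higher. Between 13 and 15 were lower with 1 library left out. MYH11, the smooth muscle myosin heavy chain, was at 9.74 and 12.3 CPM in wing and 194 and 153 CPM in dorsal E9 skin, with -3.86 ± 0.23 (SE; adjusted p = 2.32e-07). TAGLN, an actin-binding protein of smooth muscle, was at 1.67 and 2.09 CPM against 50.9 and 24.5 CPM, with -3.66 ± 0.39 (SE; adjusted p = 2.84e-05). MYOCD (ENSGALT00000043043.1), the coactivator that drives the smooth muscle programme, was at 2.45 and 4.66 CPM against 59 and 56.7 CPM, with -3.73 ± 0.27 (SE; adjusted p = 1.25e-06). A further row of MYOCD was measured and is not reported here. LMOD1 (-2.63), ACTG2 (-2.44) and SYNPO2 (-2.05), further contractile or actin genes, were also lower in wing, and so was RGS5, a pericyte gene (-2.12).

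Dorsal E7 skin held 12.1 and 9.72 CPM of MYH11, 1.47 and 1.02 CPM of TAGLN and 0.88 and 1.54 CPM of MYOCD, near the wing level for MYH11 and below it for the others. The list summed to 1044 and 1150 CPM in wing, 2554 and 2310 CPM in dorsal E9 and 1182 and 1175 CPM in dorsal E7 skin. Against dorsal E7 skin 5 of its members were higher in wing and 2 lower, where 6.88% and 6.44% of all transcripts were. Without dorsal E7 replicate 1 or wing replicate 2 the higher members were 3, and no lower member passed without either dorsal E7 library or without wing replicate 1. In skin taken whole, fewer cells of a type and less RNA per cell cannot be told apart.

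Endothelial genes were lower in wing in 23 of 31 cases (74.2%), where 12.5% of all transcripts were. The list had a median of -1.12. With 1 library left out 13 to 20 were lower, 13 without wing replicate 1 or dorsal E9 replicate 1. CDH5, the cadherin of endothelial junctions, was at 139 and 207 CPM in wing and 530.5 and 483 CPM in dorsal E9 skin, with -1.57 ± 0.24 (SE; adjusted p = 5.42e-04). Thigh skin held 348.5 and 513.5 CPM of CDH5, and wing minus thigh was -1.31 ± 0.24 (SE; limma adjusted p = 0.00242). PECAM1, an adhesion molecule of endothelium, was at 57.9 and 69.1 CPM against 287 and 151 CPM, with -1.71 ± 0.27 (SE; adjusted p = 6.02e-04). TEK, the angiopoietin receptor, was at 21 and 37.7 CPM against 126 and 118 CPM, with -2.07 ± 0.28 (SE; adjusted p = 2.23e-04). MMRN1, a protein of endothelial cells and platelets found also in lymphatic vessels, was at 4.42 and 6.08 CPM against 52.2 and 49 CPM, with -3.06 ± 0.29 (SE; adjusted p = 1.37e-05). FLT4, a receptor of lymphatic growth factors, differed by -1.55 and KDR, the main VEGF receptor, by -1.10. The single higher member was angiopoietin 1 (ANG-1 in the table), a ligand of TEK made by perivascular cells, with 1.26, and its call was lost without dorsal E9 replicate 2 and without wing replicate 2.

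Summed over the endothelial list, wing held 781 and 993 CPM, dorsal E9 skin 2556 and 2146 CPM and dorsal E7 skin 1070 and 1097 CPM. The median against dorsal E7 skin was -0.34, with 7 members lower and 3 higher in wing, where 6.44% and 6.88% of all transcripts were. The lower members were 2 without either dorsal E7 library or without wing replicate 1. Blood cell genes went the same way at E9. Lower in wing were 61.5% of red cell genes and higher 7.69%, where 12.5% and 7.36% of all transcripts were. Of 13 red cell genes 8 were lower and 1 higher, but the lower members were 2 without wing replicate 1, 3 without dorsal E9 replicate 1, 4 without dorsal E9 replicate 2 and 10 without wing replicate 2. The higher call was lost on leaving out any of the 4 libraries. Their sum was 295 and 683 CPM in the wing libraries, a spread wider than that in dorsal E9 skin (1057 and 1004 CPM). Dorsal E7 skin summed to 905 and 1347 CPM and thigh skin to 1007 and 1179 CPM, above both wing libraries. By limma 6 red cell genes were lower in wing than in dorsal E7 skin, where 6.44% of all transcripts were. That count fell without dorsal E7 replicate 1 or wing replicate 1 and rose without wing replicate 2. Against thigh skin 7 were lower, where 11.6% of all transcripts were, and 0 were higher against either. LMO2, a factor of blood and endothelial cells, was at 29.9 and 32.5 CPM in wing against 97 and 72.3 CPM, with -1.40 ± 0.20 (SE; adjusted p = 2.60e-04). HBE1, an embryonic globin, was at 12.1 and 42.8 CPM against 109 and 101 CPM, and its call was lost without wing replicate 1 (adjusted p = 0.0607).

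Leukocyte genes were lower in 6 of 20 cases and higher in 1, with 8 lower without dorsal E9 replicate 2 and 1 without any other of the 4 libraries. CD3E, a chain of the T cell receptor complex, was the higher one, with 2.00 ± 0.20 (SE; adjusted p = 1.49e-05). It was at 10.04 and 8.5 CPM in wing, 1.43 and 1.69 CPM in dorsal E9 and 21.4 and 19.6 CPM in dorsal E7 skin. Among the lower members were CD4, TIMD4, LAPTM5 and CSF1R, and the call of each was lost without at least 1 of the 4 libraries. Skeletal muscle genes were lower in 4 of 18 cases, with 12 lower without dorsal E9 replicate 2 and 2 without any other of the 4 libraries. Their sum was 136 and 144 CPM in wing and 516 and 344 CPM in dorsal E9 skin. MYL4, an embryonic myosin light chain, was at 24.9 and 26.7 CPM against 169 and 129 CPM, with -2.47 ± 0.31 (SE; adjusted p = 1.08e-04). Lower in wing were 30% of the leukocyte and 22.2% of the skeletal muscle genes, where 12.5% of all transcripts were. The part of vessels, blood and muscle in the differences of other genes was not tested.

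**Figure D5:**
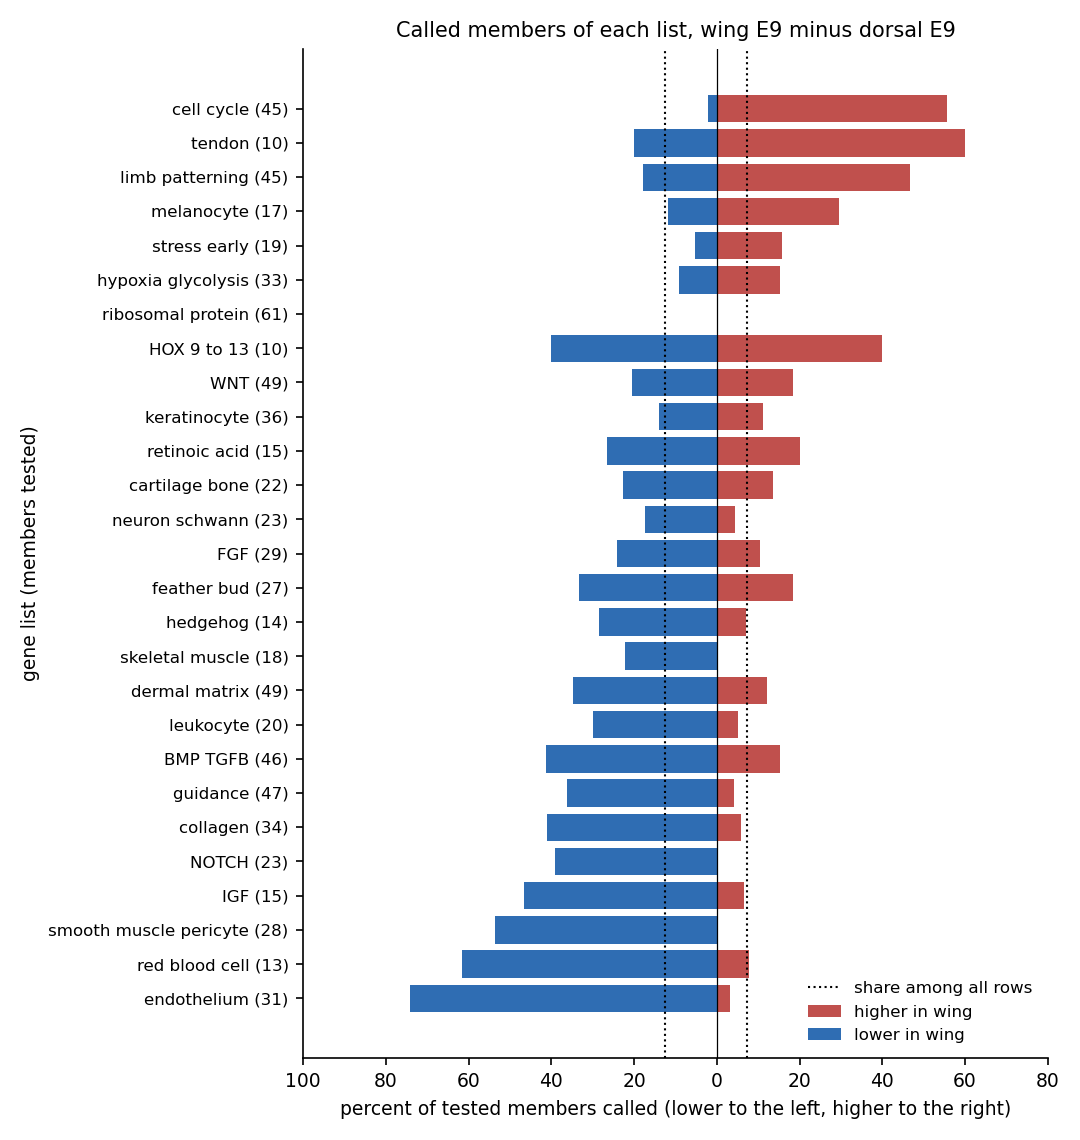
Percent of the tested members of each gene list that were lower (blue, to the left) or higher (red, to the right) in wing than in dorsal E9 skin, for lists of at least 10 members, with the number tested in brackets. Dotted lines mark the share among all transcripts, 12.5% lower and 7.36% higher.

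Collagen genes were lower in wing in 14 of 34 cases (41.2%) and higher in 2 (5.88%), where 12.5% and 7.36% of all transcripts were. The list had a median of -0.54. The lower members were 5 without wing replicate 1, 7 without dorsal E9 replicate 1, 11 without dorsal E9 replicate 2 and 12 without wing replicate 2, and 1 higher member was left in each of these fits. COL18A1, a basement membrane collagen, was at 126 and 172 CPM in wing and 739 and 654 CPM in dorsal E9 skin, with -2.23 ± 0.25 (SE; adjusted p = 4.48e-05). COL13A1, a transmembrane collagen, was at 4.18 and 5.8 CPM against 41.8 and 27.9 CPM, with -2.57 ± 0.27 (SE; adjusted p = 2.27e-05). COL20A1, a collagen associated with fibrils, was at 1.97 and 2.57 CPM against 29.9 and 12.3 CPM, with -2.64 ± 0.38 (SE; adjusted p = 2.93e-04). COL8A1, a short-chain collagen, stood the other way, at 4.84 and 8.79 CPM against 0.2 and 0.31 CPM, with 2.59 ± 0.28 (SE; adjusted p = 3.18e-05). Summed over the list the libraries differed less, at 16075 and 15018 CPM in wing and 17123 and 17064 CPM in dorsal E9 skin.

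Other matrix genes of the dermis were lower in 17 of 49 cases (34.7%) and higher in 6 (12.2%), with a median of -0.50. Among all transcripts 12.5% were lower and 7.36% higher. DPT, dermatopontin, was at 22.1 and 19.6 CPM in wing and 133 and 119 CPM in dorsal E9 skin, with -2.54 ± 0.27 (SE; adjusted p = 2.97e-05). MFAP5, a microfibril protein, was at 34.2 and 38.4 CPM against 217 and 146 CPM, with -2.26 ± 0.23 (SE; adjusted p = 1.72e-05). EMILIN2, a glycoprotein of elastic matrix, was at 36.5 and 42.1 CPM against 191 and 217 CPM, with -2.35 ± 0.23 (SE; adjusted p = 1.55e-05). CCBE1, a matrix protein required for lymphatic growth, differed by -2.50 and SPON1, F-spondin, by -2.03. FREM1, a protein of the epidermal basement membrane, differed by -1.54.

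Members higher in wing were led by KERA and PODN, both small leucine-rich proteoglycans. KERA, keratocan, was at 559 and 621 CPM in wing and 177 and 163 CPM in dorsal E9 skin, with 1.79 ± 0.18 (SE; adjusted p = 1.67e-05), and at 105 and 97.5 CPM in dorsal E7 skin. PODN, podocan, was at 146 and 142 CPM against 36.5 and 51.2 CPM, with 1.71 ± 0.17 (SE; adjusted p = 1.90e-05), and at 614 and 530.2 CPM in dorsal E7 skin. Tendon genes were higher in 6 of 10 cases and lower in 2, with a median of 0.72, and 4 were higher on leaving out any 1 library. The lower members were 1 without dorsal E9 replicate 2 or wing replicate 1. Higher were 60% of the tendon genes and lower 20%, where 7.36% and 12.5% of all transcripts were. MKX, a homeobox factor of tendon, was at 15.5 and 11.1 CPM against 0.51 and 0.41 CPM, with 3.28 ± 0.33 (SE; adjusted p = 1.79e-05). COMP, a matrix protein of cartilage and tendon, was at 20.3 and 22.3 CPM against 7.15 and 6.52 CPM, with 1.51 ± 0.19 (SE; adjusted p = 1.12e-04). FMOD, fibromodulin, a small leucine-rich proteoglycan of the matrix and tendon lists, was lower in wing, with -1.38.

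Cartilage and bone genes split, with 3 of 22 higher and 5 lower, and 3 lower without dorsal E9 replicate 2 or wing replicate 1. The higher share was 13.6% and the lower one 22.7%, where 7.36% and 12.5% of all transcripts were. HAPLN1, described above, was the member with the widest difference. RUNX2, the factor of bone formation, was at 149 and 132 CPM in wing and 55.3 and 67.5 CPM in dorsal E9 skin, with 1.19 ± 0.19 (SE; adjusted p = 7.37e-04). COL9A1, a cartilage collagen, was at 2.21 and 2.71 CPM against 8.38 and 13.3 CPM, with -1.75 ± 0.26 (SE; adjusted p = 3.61e-04). ALPL, the alkaline phosphatase of mineralising tissue, differed by -0.95. COMP belongs to both the tendon and the cartilage list, and KERA to both the tendon and the matrix list.

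Guidance genes of axons and vessels were lower in wing in 17 of 47 cases (36.2%) and higher in 2 (4.26%), with a median of -0.33. Among all transcripts 12.5% were lower and 7.36% higher. Without wing replicate 1 there were 4 lower members, and there were 9 without dorsal E9 replicate 2, 10 without dorsal E9 replicate 1 and 14 without wing replicate 2. The higher members were 1 without wing replicate 1 or dorsal E9 replicate 1. NRP2, a receptor of semaphorins and VEGF on veins, lymphatics and axons, was at 44.2 and 47.9 CPM in wing and 316 and 328 CPM in dorsal E9 skin, with -2.78 ± 0.31 (SE; adjusted p = 3.96e-05). NTN1, the ligand netrin 1, was at 3.53 and 4.09 CPM against 18.1 and 19.1 CPM, with -2.03 ± 0.40 (SE; adjusted p = 0.00301). SEMA3G, a semaphorin of arteries, was at 21.52 and 23.9 CPM against 81.3 and 60.1 CPM, with -1.58 ± 0.27 (SE; adjusted p = 0.00115). ROBO3, a receptor of the SLIT family, was at 1.85 and 1.95 CPM against 8.73 and 7.96 CPM, with -1.69 ± 0.25 (SE; adjusted p = 4.42e-04), while dorsal E7 skin held 158 and 144 CPM. PLXNA4, a semaphorin receptor, was higher in wing, with 1.06 ± 0.21 (SE; adjusted p = 0.00305).

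Nerve and Schwann cell genes were lower in 4 of 23 cases and higher in 1, near the share among all transcripts. The higher one, ISL1, a LIM homeobox factor of motor and sensory neurons, was at 1.85 and 2.09 CPM in wing and 0.66 and 0.62 CPM in dorsal E9 skin, a difference of 0.86. Its call was lost on leaving out any of the 4 libraries (adjusted p = 0.0594 to 0.0805) and in DESeq2 (0.0698). INA, a neuronal filament protein, was at 0.6 and 0.57 CPM against 2.66 and 1.9 CPM, with -1.04 ± 0.19 (SE; adjusted p = 0.00201).

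Genes of pigment cells and their signals were higher in 5 of 17 cases (29.4%) and lower in 2 (11.8%), where 7.36% and 12.5% of all transcripts were. There were 3 higher members without wing replicate 2 and 1 lower member without wing replicate 1. EDN3 (Edn3 in the table), endothelin 3, a ligand that attracts pigment cell precursors, was at 19.8 and 22.9 CPM in wing and 8.02 and 9.29 CPM in dorsal E9 skin, with 1.21 ± 0.20 (SE; adjusted p = 8.44e-04). ASIP, the agouti signal that acts on the melanocortin receptor, has more than 1 row. Row ENSGALT00000034646.3 was at 1.85 and 2 CPM in wing, 0.1 and 0.21 CPM in dorsal E9 and 14 and 19.4 CPM in thigh skin, with 1.34 ± 0.23 (SE; adjusted p = 0.00115). A further row, ENSGALT00000044768.1, was among the set-aside ones, at 12.6 and 11.3 CPM in wing, 0.66 and 0.72 CPM in dorsal E9 and 87.8 and 81 CPM in thigh skin. KIT, the receptor on pigment cell precursors, was at 4.96 and 5.84 CPM against 17.8 and 19.5 CPM, with -1.62 ± 0.24 (SE; adjusted p = 4.51e-04). The pigment enzyme genes TYR, TYRP1 and DCT did not pass.

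Keratinocyte genes were higher in 4 and lower in 5 of 36 cases, near the share among all transcripts, and their median was 0.17. The lower members were 2 without wing replicate 1 or dorsal E9 replicate 1 and 3 without dorsal E9 replicate 2. Their sum was 750.4 and 1012 CPM in wing and 876 and 802 CPM in dorsal E9 skin, with overlapping libraries. TFAP2C, a factor of surface ectoderm, was at 25 and 30.4 CPM in wing and 138 and 116 CPM in dorsal E9 skin, with -2.16 ± 0.23 (SE; adjusted p = 2.75e-05). KLF4, a factor of barrier formation, was at 45.2 and 52.5 CPM against 181 and 131 CPM, with -1.64 ± 0.27 (SE; adjusted p = 8.44e-04). LAMA3, a laminin chain of the epidermal basement membrane, was at 88.4 and 92.9 CPM against 25 and 25.6 CPM, with 1.80 ± 0.25 (SE; adjusted p = 2.23e-04). ST14, the epithelial protease matriptase, was at 51.2 and 45.5 CPM against 14.4 and 8.98 CPM, with 1.99 ± 0.22 (SE; adjusted p = 4.09e-05). PKP2, a plaque protein of desmosomes, differed by 2.02.

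Cell cycle genes were higher in wing in 25 of 45 cases (55.6%) and lower in 1 (2.22%). Of all transcripts 7.36% were higher and 12.5% lower, and the list had a median of 0.71. The higher members were 7 without dorsal E9 replicate 1, 8 without wing replicate 1, 18 without wing replicate 2 and 21 without dorsal E9 replicate 2. In edgeR and in DESeq2 there were 37 higher members. TYMS, the enzyme that makes thymidylate for DNA synthesis, was at 125 and 117 CPM in wing and 42.1 and 47.8 CPM in dorsal E9 skin, with 1.41 ± 0.20 (SE; adjusted p = 2.38e-04). TPX2, a spindle assembly factor, was at 150.2 and 132 CPM against 58.1 and 65 CPM, with 1.18 ± 0.19 (SE; adjusted p = 6.85e-04). MCM2, a subunit of the replicative helicase, was at 336 and 313 CPM against 151 and 158 CPM, with 1.07 ± 0.15 (SE; adjusted p = 2.80e-04). The helicase subunit MCM5 differed by 0.91 and the kinetochore protein SPC25 by 0.90. The lower member was CDKN1B, an inhibitor of cyclin-dependent kinases, with -0.64, and its call was lost without either wing library and without dorsal E9 replicate 1.

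Dorsal E7 skin stood near wing for these genes. It held 90.2 and 86.6 CPM of TYMS, 121 and 109 CPM of TPX2 and 311 and 297 CPM of MCM2, and the list summed to 7186 and 6734 CPM in wing, 3932 and 4673 CPM in dorsal E9 and 7299 and 7287 CPM in dorsal E7 skin. Against dorsal E7 skin 0 of the 45 were higher and 0 lower by limma, with a median of -0.03. At an unadjusted p 2 were higher and 3 lower, in edgeR 1 was higher and 3 lower, and in DESeq2 2 were higher and 4 lower. Thigh E9 skin summed to 7433 and 9282 CPM over the list, above both dorsal E9 libraries. Against thigh skin 1 member was higher in wing and 7 were lower by limma, with a median of -0.14. Of all transcripts 9.26% were higher and 11.6% lower in that comparison.

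Ribosomal protein genes did not pass in any of 61 cases by limma, at an adjusted or an unadjusted p, while edgeR called 3 higher and DESeq2 4. Their median was 0.16, and of all transcripts 7.36% were higher and 12.5% lower. Stress and immediate early genes were higher in 3 of 19 cases and lower in 1, with 1 higher without dorsal E9 replicate 2, and the lower call, MYC, was lost on leaving out any of the 4 libraries. FOS, an immediate early factor, was at 6.81 and 37.7 CPM in wing and 1.94 and 0.87 CPM in dorsal E9 skin, with 2.89 ± 0.55 (SE; adjusted p = 0.00238), and the wing libraries were far apart. The stress and immediate early list was higher in 15.8% and lower in 5.26%, where 7.36% and 12.5% of all transcripts were. Genes of glycolysis and the response to low oxygen were higher in 5 of 33 cases (15.2%) and lower in 3 (9.09%). There was 1 higher member without wing replicate 1 or dorsal E9 replicate 2, 2 without dorsal E9 replicate 1 and 3 without wing replicate 2. LDHA, which turns pyruvate into lactate, was at 584 and 558 CPM against 208 and 208 CPM, with 1.45 ± 0.28 (SE; adjusted p = 0.00271). EPAS1, the hypoxia-inducible factor of endothelium, was at 35.2 and 55.2 CPM against 146 and 142 CPM, with -1.68 ± 0.26 (SE; adjusted p = 5.12e-04).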

How the data were processed

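RNA was extracted with Trizol and libraries were made with the Illumina TruSeq V2 kit, per the labels' protocols. The authors deposited 1 table of 12297 transcripts by 12 libraries whose values are a signal, CPM against an effective library size. TopHat2, Partek, HTSeq, edgeR and the build galGal4 are named in the submitters' processing notes, with no version or role. In every library 100% of values up to 100 CPM were whole multiples of 1 read within 0.0055 units, so reads were recovered. An automatic check did not accept the recovered reads of thigh E9 replicate 2, so it was left out of count tests, which used 11 libraries. A library held 13164609 to 20641981 reads, and 3 reads, the limit of a count of 0, were 0.143 to 0.221 CPM. Intervals and limits cover counting error only, since reads carry no molecular identifiers.

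Values were analysed as log2(CPM + 1), which understates changes of low genes, after keeping transcripts at 1 CPM in at least 2 libraries (12277 kept, 20 removed). All 12 libraries entered 1 limma fit with a mean per group and a mean-variance trend (R 4.3.3, limma 3.58.1, 6 residual and 6.95 prior degrees of freedom), with two-sided tests and Benjamini-Hochberg adjustment over all 12277. The 38 set-aside transcripts stayed in the fit and out of all counts. Recovered reads were also tested in edgeR 4.0.16 and DESeq2 1.42.0. The fit was tested on simulated data. Named were the 15 largest called differences in each direction with at least 5 CPM in the higher group and no overlap, every HOX gene, TBX5, TBX4 and PITX1, and for each of 31 lists at most 5 called members. Further members were named after their values were seen. A few genes are not reported here. Members, lists and rule were chosen with earlier results of these data known. Other alternatives were pseudocounts of 0.5 and 2 CPM, no filter, a filter at 5 CPM, other scalings, no trend, robust moderation, a replicate block, only the libraries compared, and each library left out. Replicate numbers were not treated as pairs. Chromosomes come from the RefSeq gene list of assembly GRCg7b, a build other than galGal4, so no coordinates are given.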

Additional observations from a re-analysis of the deposited data

Results flagged for a closer look

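The 38 set-aside transcripts lay outside the comparison and were present in wing, with a mean sum of 811 CPM over the 2 wing libraries. The 2 dorsal E9 libraries held 10.03 and 10.17 CPM. The rule itself fixes that difference, which carries no test. Against dorsal E7 skin 9 of the 38 passed, and 5 against thigh skin. Only 6 are listed on chromosome W, and 11 are listed elsewhere, among them MAB21L1 and MAB21L2, named after their values were seen. MAB21L2, a regulator of eye development in mouse, stood at 39.7 and 28.6 CPM in wing, 0.87 and 0.41 CPM in dorsal E9 and 1.55 and 1.14 CPM in dorsal E7 skin. MAB21L1, its relative, stood at 20.3 and 10.6 CPM in wing, 0.66 and 0.62 CPM in dorsal E9 and 1.03 and 1.65 CPM in dorsal E7 skin. The cause was not tested.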

How the results depend on the processing

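The count of 2434 calls between wing and dorsal E9 skin became 3745 in DESeq2, 3813 in edgeR, 4092 with the libraries compared alone and 3771 without the thigh libraries, and ranged from 1073 to 1608 with 1 library left out. It was 2560 with a replicate block, 2443 with set-aside transcripts listed off W kept and 2290 without Z-listed ones; the last 2 settings were chosen after seeing the data. Against dorsal E7 skin 1630 calls became 2739 in DESeq2, 2605 in edgeR, 4738 with the libraries compared alone, 2644 without the thigh libraries and 795 to 995 with 1 library left out. Against thigh skin 2556 calls became 897 with the libraries compared alone and 879 to 4685 with 1 library left out, 4685 without thigh replicate 1. With a library left out, the lone one is assumed to vary like the other groups. TBX4, not called, turned to -0.17 without dorsal E9 replicate 1, -0.02 without wing replicate 2 and 0.24 without dorsal E9 replicate 2. The cause of these changes was not tested. Of 151 named genes 146 were called, and 109 of these kept their side of the threshold under every one of the 17 alternatives that tested them, with 136 of the 146 tested at the 5 CPM filter; of the 29 with the largest differences 28 did, 7SK being the exception. Of 1054 list counts under alternatives 153 moved by over 1.5 times, 93 of them with 1 library left out. Replicate differences of wing and dorsal E9 skin correlated at 0.12, from 2 pairs. Scaling moved the median of all transcripts from -0.03 to at most 0.04.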

Other observations

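Several gene families were grouped by the start of their symbols after their values were seen, and their counts stand against 12.5% lower and 7.36% higher among all transcripts. Of 47 potassium channel genes (symbols starting with KCN) 15 were lower and 8 higher, and of 15 calcium channel genes (CACN) 6 were lower and 1 higher. Of 12 sodium channel genes (SCN) 2 were lower. KCNS3, a modifier of potassium channels, stood at 0.84 and 1.66 CPM in wing, 16.2 and 11.7 CPM in dorsal E9 and 0.74 and 0.68 CPM in dorsal E7 skin. For KCNS3, dorsal E9 skin was the high group and wing lay near dorsal E7 skin. KCNK2, a leak channel, was higher in wing, with 1.81 ± 0.24 (SE; adjusted p = 1.95e-04).

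Gap junction genes of the GJA family were lower in all 3 cases tested, GJA5, GJA4 and GJA1. Of 21 genes with symbols starting with ITG, mainly integrin subunits, 8 were lower and 2 higher, counting ITGBL1 (lower) and ITGB3BP (higher), which encode no integrin subunit. Of 18 genes with symbols starting with ADAMTS, secreted proteases and related proteins without the protease domain such as ADAMTSL2, 6 were lower and 1 higher. ADAMTS17, a protease, was at 48.8 and 84.3 CPM in wing, 169 and 234 CPM in dorsal E9 and 6.03 and 7.45 CPM in dorsal E7 skin, with -1.62 ± 0.24 (SE; adjusted p = 3.87e-04). ITGB3, an integrin of platelets and vessels, differed by -1.69. Among 212 solute carriers 32 were lower and 17 higher, close to the share among all transcripts. SLC25A48, a mitochondrial carrier, was at 46.1 and 46.4 CPM in wing against 4.65 and 3.7 CPM, with 3.20 ± 0.23 (SE; adjusted p = 1.45e-06). SLC6A17, a vesicular amino acid transporter of neurons, was at 0.96 and 2.95 CPM against 29.4 and 22.4 CPM, with -3.26 ± 0.30 (SE; adjusted p = 8.94e-06).

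CXCL12, a chemokine that guides cell migration, was at 30.1 and 30.8 CPM in wing and 99.4 and 97.9 CPM in dorsal E9 skin, with -1.67 ± 0.18 (SE; adjusted p = 2.91e-05), and at 6.48 and 8.02 CPM in dorsal E7 skin. SOX13, a SOX family factor, was at 7.47 and 8.98 CPM against 49 and 38.1 CPM, with -2.27 ± 0.22 (SE; adjusted p = 1.52e-05). Both genes had higher values in both dorsal E9 libraries than in either wing library.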
